A study of Mus musculus with 3 samples.

Results

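The genes described here are the 37 Wnt ligands, Frizzled receptors, LRP co-receptors, LGR receptors and R-spondins of the mouse, taken by name from the 22367 protein-coding genes that the annotation places on assembled chromosomes. They are 19 ligands, 10 Frizzled receptors, 2 LRP co-receptors, 2 LGR receptors and 4 R-spondins, and each was matched to 1 protein-coding gene. The question was where estrogen receptor α (ERα), the estradiol-activated transcription factor of the mammary epithelium, was bound around these genes. ERα was mapped by chromatin immunoprecipitation and sequencing (ChIP-seq) in mammary glands of wild-type (WT) BALB/c female mice (BALB/cJ in the methods). The mice were ovariectomized at 6 weeks of age, left for 10 days, and given 100 ng of 17β-estradiol 2 h before the glands were taken. Both ChIP replicates came from glands pooled from several mice, were made with the antibody sc-542, and were set against 1 input library from mice treated in the same way. The glands were whole tissue from which the lymph node had been removed, so a peak cannot be assigned to a cell type. No ChIP library without estradiol was analysed here, so the values below are positions and strengths of binding after estradiol and not changes caused by it.

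Wnt proteins are secreted, lipid-modified ligands that bind Frizzled receptors together with the co-receptors LRP5 or LRP6, and the β-catenin branch of the pathway is switched on when both are engaged. R-spondins bind LGR receptors and keep Frizzled proteins on the cell surface by blocking the ubiquitin ligases that remove them. In the mammary gland the pathway is known for its part in stem cell maintenance, duct formation and side branching, and Wnt1 was found as an integration site of the mouse mammary tumor virus.

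The deposited lists held 9607 peaks in replicate 1 and 6819 in replicate 2, each with a score equal to 10 times the −log10 of its p-value and with 80 as the score at the authors' cutoff. A shared region is the stretch covered by a peak of each replicate, and there were 6250 of these, 6243 of them on assembled chromosomes. A region was counted at a gene when its midpoint lay within 100 kb of any annotated transcription start site (TSS) of that gene. The lists give no read counts, so the reads behind a single score are not known. The study reports total and uniquely mapped reads per library, which were not used here. A gene without a listed peak is a gene at which nothing passed the cutoff.

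By this measure 30 distinct shared regions lay around 17 of the 37 genes, and 3 of the 30 were within reach of a pair of genes. The estrogen response element (ERE), the DNA sequence to which an ERα dimer binds, is a palindrome of 2 half-sites around 3 free bases, written GGTCANNNTGACC. None of the 30 regions held it without a mismatch in the 400 bp around the midpoint, and 8 held it with 1 mismatch. Those 8 sequences are shown because they are the closest matches to the ERα element at these genes. They are written 5′ to 3′ on the plus strand of NCBIM37 (mm9), with half-site bases that match the element in capitals and the mismatch and the 3 free bases in lower case.
Wnt9b and Wnt3, chr11:103612086-103612098: GGTgAcagTGACC
Wnt7b, chr15:85433224-85433236: GGTCAgccTGAaC
Fzd10, chr5:129082262-129082274: GGcCAccgTGACC
Fzd4, chr7:96632052-96632064: aGTCAagcTGACC
Lrp5, chr19:3650575-3650587: GGTCAgatTaACC
Lrp6, chr6:134375699-134375711: GGTCActgTGgCC
Rspo2, chr15:43008933-43008945: GGTCAgccTGAtC
Rspo4, chr2:151741752-151741764: GGTCActcTGcCC

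With positions counted from 1 at the 5′ end and the element's base written first, the differences were C4G at Wnt9b and Wnt3, C12A at Wnt7b, T3C at Fzd10, G1A at Fzd4, G10A at Lrp5, A11G at Lrp6, C12T at Rspo2 and A11C at Rspo4. The right half-site was intact at Wnt9b and Wnt3, Fzd10 and Fzd4, and the left half-site was intact at the other 5 regions. The match lay between 193 bp to the left of the region midpoint (Rspo4) and 11 bp to its right (Lrp5). A match describes the letters in the window and does not show where in the region the protein was bound.

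The 3 regions with the highest lower score, meaning the smaller of the 2 replicate scores, lay at Fzd10, Lrp5 and Fzd4. Their central sequence is shown with the matches to the searched motifs in capitals, on the plus strand of NCBIM37.
Fzd10, chr5:129082254-129082553: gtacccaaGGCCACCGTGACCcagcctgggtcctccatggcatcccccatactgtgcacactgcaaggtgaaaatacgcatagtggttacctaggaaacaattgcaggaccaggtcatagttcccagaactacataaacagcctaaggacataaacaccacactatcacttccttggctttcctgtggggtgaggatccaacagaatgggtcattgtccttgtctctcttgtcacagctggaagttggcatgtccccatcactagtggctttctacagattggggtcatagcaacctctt
Lrp5, chr19:3654102-3654401: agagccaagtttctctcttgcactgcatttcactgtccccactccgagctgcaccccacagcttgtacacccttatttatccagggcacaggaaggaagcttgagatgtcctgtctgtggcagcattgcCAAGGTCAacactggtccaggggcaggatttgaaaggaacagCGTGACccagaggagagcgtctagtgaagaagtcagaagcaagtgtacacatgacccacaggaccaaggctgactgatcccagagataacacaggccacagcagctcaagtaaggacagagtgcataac
Fzd4, chr7:96632049-96632348: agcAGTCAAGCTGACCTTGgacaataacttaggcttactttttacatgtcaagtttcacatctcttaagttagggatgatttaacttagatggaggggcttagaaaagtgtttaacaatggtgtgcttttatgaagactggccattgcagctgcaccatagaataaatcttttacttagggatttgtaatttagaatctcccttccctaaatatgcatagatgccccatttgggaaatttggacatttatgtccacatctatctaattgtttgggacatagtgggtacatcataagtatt

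In the Fzd10 sequence the capitals mark the ERE-like match, inside which a PAX2 motif lies on the minus strand. The Lrp5 sequence holds the SF1 motif and, further on, the PAX2 motif on the minus strand, with no ERE-like match. In the Fzd4 sequence the ERE-like match and an SF1 motif on the minus strand overlap and are marked together, so they are not separate pieces of evidence.

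A shared region lay within 100 kb of a TSS at 17 of the 37 genes, which is 45.9% (95% exact binomial interval 29.5 to 63.1), beside 38.1% of all protein-coding genes. A gene of this group was the nearest gene of any kind to a shared region in 7 of 37 cases, or 18.9% (8.0 to 35.2), beside 11.8% of all protein-coding genes. In both measures the share of all genes lay inside the interval of the Wnt group. A difference from the rest of the genome was not tested. These intervals cover counting error only and treat neighbouring genes as separate, although some of them share a region. The mean was 0.892 shared regions per Wnt group gene and 0.753 per protein-coding gene, and the median was 0 in both.

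Counted in each replicate on its own, replicate 1 had a peak at 21 of 37 genes, or 56.8% (39.5 to 72.9), beside 49.6% of all protein-coding genes, and replicate 2 had one at 17 of 37, or 45.9%, beside 40.3%. Each share of all genes was again inside the interval for the group. At 6 of the 37 genes there were 3 or more shared regions, or 16.2% (6.2 to 32.0), beside 8.88% of all protein-coding genes. This share of all genes also lay inside the interval, and some of these regions were nearest to other genes, as described below.

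A gene with several TSSs covers more sequence, so the share was also read within classes of the length lying within 100 kb of a TSS. Of the 21 group genes at the shortest possible length (200001 bp), 9 had a shared region (42.9%), beside 31.2% of all genes of that length. In the class from 200002 to 200052 bp it was 1 of 2 genes beside 37.8%, from 200053 to 209644 bp 4 of 7 genes (57.1%) beside 41.7%, and from 209645 bp upwards 3 of 7 genes (42.9%) beside 46.8%. The group lay above the share of all genes in the 3 shorter classes and below it in the longest, with few genes in each.

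**Figure D1:**
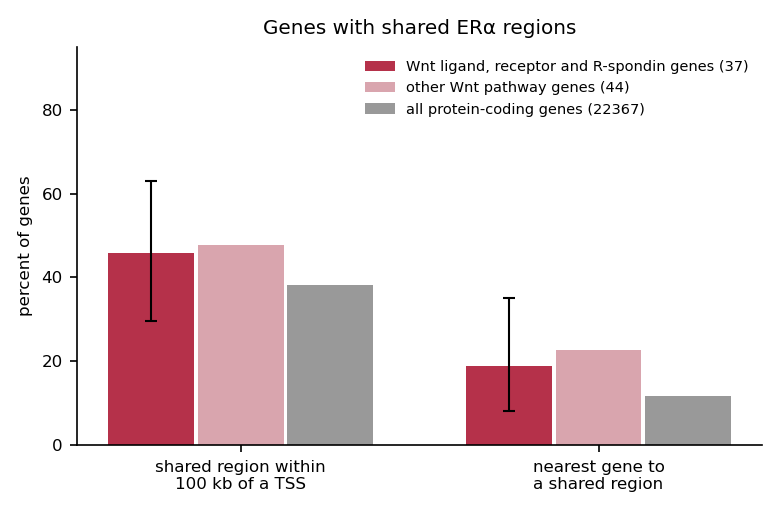
Percent of genes (y axis) with a shared ERα region within 100 kb of a TSS, and percent that are the nearest gene to a shared region, in the 37 Wnt group genes, 44 other Wnt pathway genes and 22367 protein-coding genes. Black lines are 95% exact binomial intervals for the 37 genes, and in both measures the bar of all protein-coding genes (38.1% and 11.8%) falls inside that interval.

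By role, 10 of 19 ligands, 2 of 10 Frizzled receptors, both LRP co-receptors, 1 of 2 LGR receptors and 2 of 4 R-spondins had a shared region, beside 38.1% of all protein-coding genes. No peak of either replicate was listed at 16 genes, namely 7 ligands (Wnt2, Wnt2b, Wnt4, Wnt6, Wnt7a, Wnt10a and Wnt16), 7 Frizzled receptors (Fzd1, Fzd3, Fzd5, Fzd6, Fzd7, Fzd8 and Fzd9), Lgr5 and Rspo3. Another 4 genes (Wnt8a, Wnt11, Fzd2 and Rspo1) had 1 peak in replicate 1 and none in replicate 2. Over all protein-coding genes, 49.6% had a replicate 1 peak within 100 kb of a TSS and 40.3% had a replicate 2 peak. The share with no peak in either replicate was not computed over all genes. The 16 genes are therefore not read as particular to the group. With so few genes in a role, the difference between ligands and Frizzled receptors is given as counts and was not tested.

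**Figure D2:**
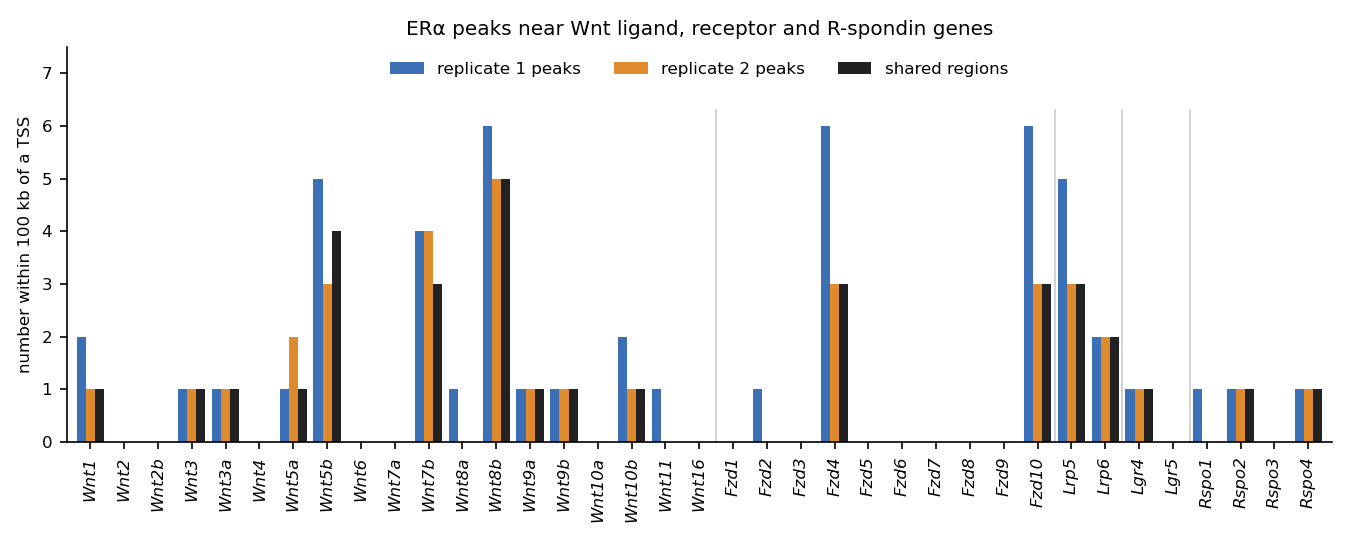
Number of ERα peaks of replicate 1 (blue) and replicate 2 (orange) and of shared regions (black) within 100 kb of a TSS of each of the 37 genes, with grey lines between the roles. Wnt8b has the most shared regions (5), followed by Wnt5b (4) and by Wnt7b, Fzd4, Fzd10 and Lrp5 (3 each), and 20 genes have none.

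The ligand Wnt5b (ENSMUSG00000030170, chr6:119382549-119494336, minus strand), known for β-catenin-independent signaling, had 5 peaks in replicate 1, 3 in replicate 2 and 4 shared regions. Of these, 3 lay within intron 1 of 4 of the transcript Wnt5b-001, an intron of 95708 bp, and Wnt5b was the nearest gene to all 3. The region 8135 bp downstream of a TSS (chr6:119485843-119486559) scored 485.09 in replicate 1 and 297.21 in replicate 2. The regions at 12750 bp (chr6:119481369-119481803) and 13325 bp (chr6:119480754-119481268) scored 269.30 and 145.39 in replicate 1 but were covered by the same replicate 2 peak, of score 255.57. They are therefore 2 regions in replicate 1 and 1 in replicate 2. None of the 3 intronic regions held any of the 5 motifs searched. The remaining region (chr6:119368511-119369174, scores 195.50 and 157.80) lay beyond the 3′ end, 30562 bp from the closest Wnt5b TSS and 1341 bp from a TSS of Adipor2, an adiponectin receptor gene, and held a PAX2 motif.

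Wnt7b (ENSMUSG00000022382, chr15:85365869-85412251, minus strand), a ligand expressed in ductal epithelium, had 4 peaks in each replicate and 3 shared regions. The strongest (chr15:85386304-85386953) scored 700.68 and 471.57, lay in intron 2 of 3 of Wnt7b at 21872 bp downstream of a TSS, and had Wnt7b as its nearest gene. A region of scores 604.96 and 348.53 (chr15:85351752-85352336) lay 56456 bp downstream and nearest to Gm4825. The weakest (chr15:85433021-85433533, scores 205.34 and 125.69) lay 21026 bp upstream, nearest to Wnt7b, and it alone of the 3 held an ERE-like sequence, with an SF1 motif 81 bp to the left of the midpoint. Wnt7b also had 1 peak without a counterpart in each replicate, both downstream beyond the 3′ end, of score 145.77 at 72717 bp in replicate 1 and of score 84.11 at 98500 bp in replicate 2.

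Wnt8b (ENSMUSG00000036961, chr19:44567962-44588763, plus strand), a ligand known from the developing forebrain, had 6 peaks in replicate 1, 5 in replicate 2 and 5 shared regions, all intergenic and upstream of it. Only the closest (chr19:44533084-44533671), 34585 bp upstream with scores 196.42 and 208.26, was nearest to Wnt8b, and it held a PAX2 and a FOXA1 motif. The other 4 were nearest to Scd1, which encodes a fatty acid desaturase and lies on the far side of them. The strongest of the 5 (chr19:44520146-44521029, scores 1249.67 and 596.29) lay 47375 bp from Wnt8b and 38388 bp from Scd1. The others were at chr19:44490560-44491250 (123.28 in replicate 2 and higher in replicate 1), chr19:44496514-44497059 (322.24 and 97.11, with a FOXA1 motif) and chr19:44522403-44522889 (147.47 and 91.80). The count for Wnt8b is thus the highest of the group, but most of its regions were closer to another gene.

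Wnt5a (ENSMUSG00000021994, chr14:29317936-29340633, plus strand), a ligand known to restrain mammary duct branching, had 1 shared region (chr14:29260744-29261308) 56910 bp upstream, with scores of 627.40 and 381.05. It lay in an intron of the neighbouring gene Erc2, yet the TSS of Wnt5a was the nearest of all genes, and it held none of the 5 motifs. Replicate 2 alone had a weaker peak 13957 bp upstream of Wnt5a, of score 85.46.

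The ligands Wnt9b and Wnt3 are neighbours and shared a region (chr11:103611765-103612445) that scored 319.46 and 283.36. It lay 970 bp upstream of the TSS of Wnt9b (ENSMUSG00000018486, chr11:103588678-103611135, minus strand), a ligand of kidney tubule formation, and 23359 bp upstream of the TSS of Wnt3 (ENSMUSG00000000125, chr11:103635464-103679271, plus strand), like Wnt1 a known integration site of the mouse mammary tumor virus. It was 1 of 2 regions in the proximal class (from 1 kb upstream to 400 bp downstream of a TSS), and the only one of these with an ERE-like sequence. An SF1 motif on the minus strand overlaps that sequence, and a FOXA1 motif lies 184 bp to the right of the midpoint.

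Both other shared pairs were ligand genes with an intergenic region nearest to a different gene. Wnt1 (ENSMUSG00000022997) and Wnt10b (ENSMUSG00000022996), a ligand of the early mammary placode, shared chr15:98561145-98561607, with scores of 150.61 and 149.57. It was 58912 bp upstream of Wnt1, 43547 bp downstream of a TSS of Wnt10b and 2747 bp from Fkbp11, and held an AP1 motif. Replicate 1 had a further peak within 100 kb of both genes (chr15:98558232-98558849), of score 206.31, in an untranslated region of Fkbp11. Wnt3a (ENSMUSG00000009900) and Wnt9a (ENSMUSG00000000126) shared chr11:59159071-59159720 (scores 373.14 and 223.36), 55141 bp upstream of Wnt3a and 38963 bp downstream of a TSS of Wnt9a, with none of the 5 motifs.

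The 20 genes without a shared region had their closest one at 116341 to 1337617 bp, with a median of 330417 bp. Just outside the limit were Wnt4, a ligand known to act downstream of progesterone in side branching (116341 bp, scores 892.38 and 570.68), Wnt7a (116928 bp, 146.88 and 80.05) and Fzd5 (119730 bp, 288.36 and 299.28). Inside the limit the farthest region was the one at Fzd4 at 79323 bp, although another region lay 817 bp from the TSS of that gene. Over all 37 genes the median distance to the closest shared region was 116928 bp, beside 159614 bp over protein-coding genes. The closest region to Wnt16, 269136 bp upstream, scored 1411.39 and 1373.05, above all 30 regions inside the limit.

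Frizzled receptors are the seven-pass membrane proteins that bind Wnts. Fzd10 (ENSMUSG00000081683, chr5:129106719-129109968, plus strand) had 6 peaks in replicate 1, 3 in replicate 2 and 3 shared regions, all intergenic and upstream. The region at 24315 bp (chr5:129081981-129082827) scored 1244.39 and 1265.49 and ranked 199 of 6250 by its lower score, the highest of the 30. Its central sequence is printed above. The region at 21509 bp (chr5:129084877-129085543) scored 401.07 and 560.10 and held an AP1 and a FOXA1 motif, and the one at 42552 bp (chr5:129063894-129064440) scored 160.02 and 139.64 and held the AP1 motif at 2 places. Fzd10 was the nearest protein-coding gene to all 3, while a long intergenic noncoding RNA, 5930412G12Rik, was closer to each. The extra 3 peaks of replicate 1 scored 110.32, 83.88 and 83.69.

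Fzd4 (ENSMUSG00000049791, chr7:96552876-96558620, plus strand), which also serves as the receptor of norrin in retinal vessels, had the same counts as Fzd10, 6 and 3 peaks and 3 shared regions. The region 79323 bp downstream (chr7:96631743-96632655) scored 1136.34 and 895.91 and ranked 382 of 6250 by its lower score. Its neighbour at 74726 bp (chr7:96627360-96627844) scored 97.51 and 138.27 and held none of the 5 motifs. Both were nearest to 1700019G06Rik. The region 817 bp upstream of the TSS (chr7:96551794-96552325, scores 323.41 and 103.27) was the other proximal one, lay in an intron of Tmem135, whose own TSS was 673 bp away, and held none of the 5 motifs. Of the 3 further peaks in replicate 1, of scores 140.38, 106.77 and 85.54, the weakest lay in a coding exon of Fzd4 itself.

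No other Frizzled gene had a shared region. Fzd2 came closest to one in the peak lists, with a replicate 1 peak of score 105.00 at 22779 bp upstream that held an ERE-like sequence and had no counterpart in replicate 2.

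**Figure D3:**
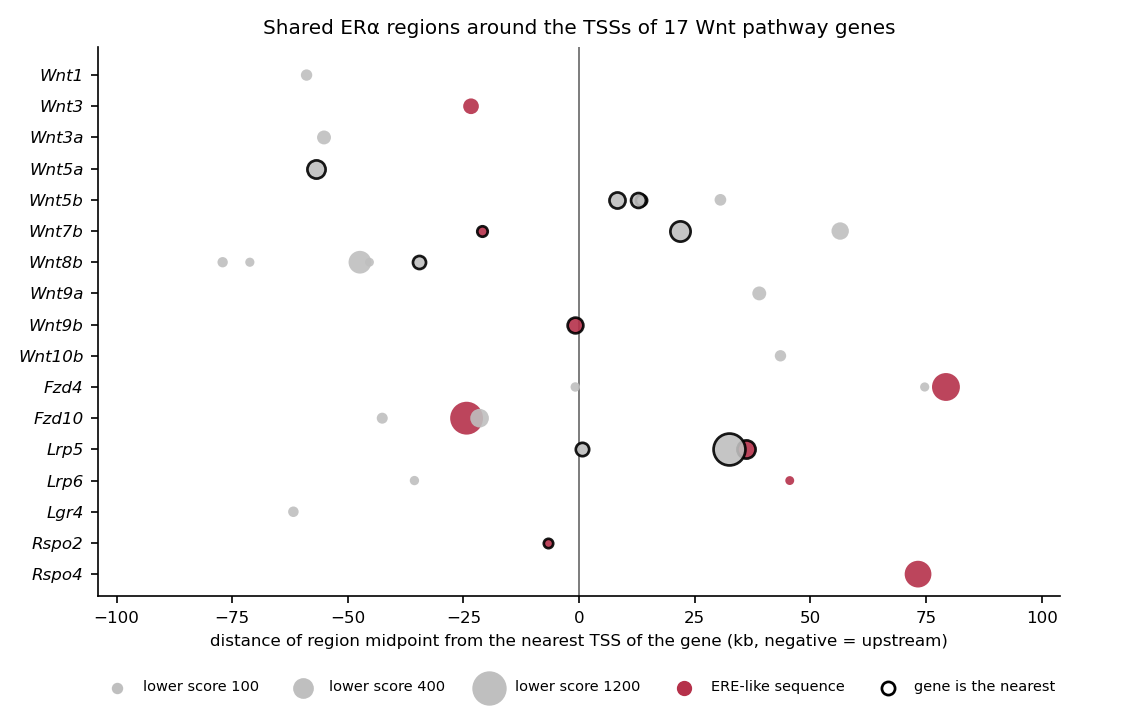
Distance of each shared region's midpoint from the nearest TSS of the gene (x axis, kb, negative upstream) for the 17 genes with a region, the area of a circle growing with the lower of the 2 replicate scores. Red circles hold an ERE-like sequence, and black outlines mark regions for which the gene is the nearest of any kind; Lrp5, Wnt5b and Wnt7b carry 8 of these.

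The LRP co-receptors bind Wnt together with a Frizzled protein. Lrp5 (ENSMUSG00000024913, chr19:3584825-3686564, minus strand) had 5 peaks in replicate 1, 3 in replicate 2 and 3 shared regions, all within its own introns and all nearest to it. The region in intron 2 of 22 (chr19:3653936-3654569), 32312 bp downstream of the TSS, scored 1385.44 and 1169.53, with ranks of 272 and 220 in the peak lists of the replicates. The region in intron 3 (chr19:3650230-3650910) scored 505.85 and 379.50 at 35994 bp, and it was the one with the ERE-like sequence. The region in intron 1 (chr19:3685656-3686226) scored 340.85 and 205.12, lay 623 bp downstream of the TSS, and held a PAX2 motif. Replicate 1 alone had another intronic peak, of score 149.91, at 42893 bp.

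Lrp6 (ENSMUSG00000030201, chr6:134396494-134516983, minus strand), the close relative of Lrp5, had 2 peaks in each replicate and 2 shared regions, both weak. The one 35592 bp upstream (chr6:134552397-134552753) scored 127.81 and 100.22, lay nearest to Mansc1 and held none of the 5 motifs. The one 45550 bp downstream (chr6:134375575-134375947) scored 91.49 and 164.34, lay in an intron of Bcl2l14 and held an ERE-like sequence. At 91.49 its lower score was the lowest of the 30.

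**Figure D4:**
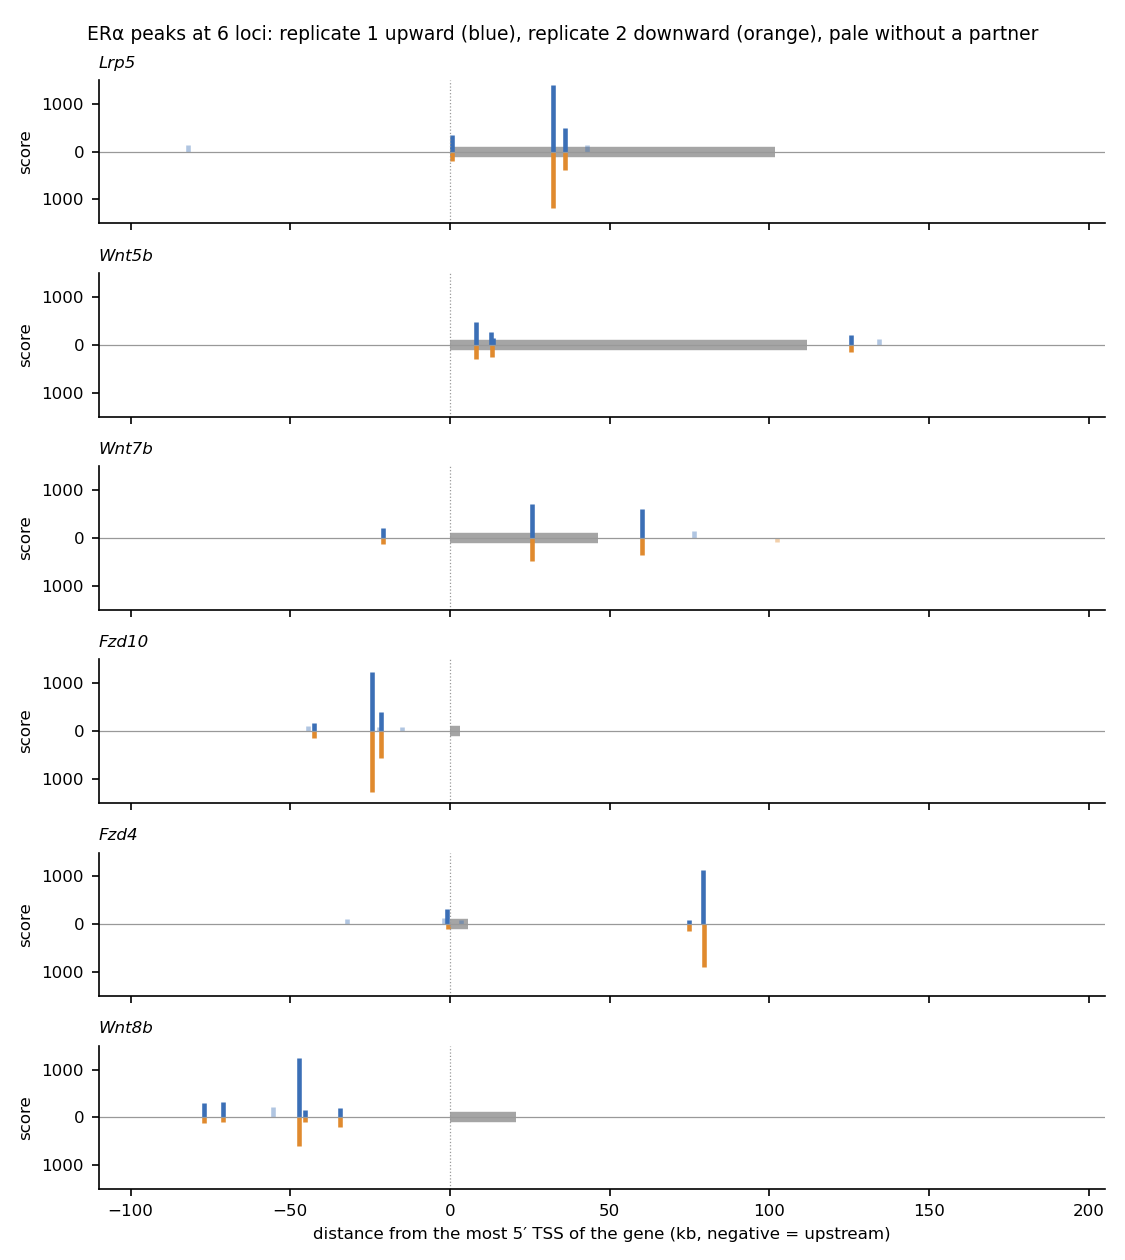
Peak scores (y axis, 10 times −log10 p) of replicate 1 (blue, upward) and replicate 2 (orange, downward) at the 6 genes with 3 or more shared regions, against distance from the most 5′ TSS (x axis, kb), with the gene body in grey and peaks without a partner in pale color. Peaks with a partner in the other replicate stand inside the gene body at Lrp5 (all 3 regions), Wnt5b (3 of 4) and Wnt7b (1 of 3), and at Fzd10, Fzd4 and Wnt8b all such peaks stand outside it; distances in the text are to the nearest TSS and can be shorter.

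Among the LGR receptors, which bind R-spondins, Lgr4 (ENSMUSG00000050199) had 1 shared region (chr2:109695803-109696282, scores 142.73 and 128.07) 61762 bp upstream, nearest to Lin7c, with an AP1 motif. Lgr5, known as a marker of epithelial stem cells, had no peak in either replicate, and its closest shared region was 1337617 bp away, the longest distance of the 37 genes.

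Of the R-spondins, Rspo2 (ENSMUSG00000051920, chr15:42852357-43002364, minus strand), known as an integration site of the mouse mammary tumor virus, had 1 shared region (chr15:43008747-43009210) 6614 bp upstream. It scored 174.88 and 100.66, was nearest to Rspo2, and held an ERE-like sequence and a FOXA1 motif. Rspo4 (ENSMUSG00000032852, chr2:151668663-151700404, plus strand), a gene of nail development, had a much stronger region (chr2:151741450-151742452, 1070.56 and 823.89), but 73288 bp downstream in an intron of Angpt4, whose TSS was 5005 bp away. Rspo1, known to be made by mammary luminal cells, had 1 replicate 1 peak of score 116.31 at 36748 bp upstream, with no counterpart in replicate 2, and Rspo3 had none.

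Of the 30 regions, 19 were intergenic and 11 intronic, and none had its midpoint in an exon. Of the 30, 7 lay inside a gene of the group, at Lrp5, Wnt5b and Wnt7b. A gene of the group was the nearest gene of any kind for 12 regions and the nearest protein-coding gene for 15. By distance, 2 (6.67%) were proximal, 13 (43.3%) further upstream and 15 (50%) further downstream. The paper also places most of its binding sites across the genome in the distal classes and few in the proximal one. It assigned each site to its nearest TSS, which need not be a TSS of this group. The splits by annotation, nearest gene and distance were not computed over all shared regions. They are not read as particular to these genes.

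The median score over the 30 regions was 321 in replicate 1 and 216 in replicate 2, beside 246 and 178 over all shared regions. Replicate 1 scored higher in 24 of the 30, with a median ratio of 1.29 (0.557 to 3.32) beside 1.31 over all shared regions. By lower score, 4 of the 30 were in the top 10% of shared regions, namely the strongest ones at Fzd10, Lrp5, Fzd4 and Rspo4. In all, 46 replicate 1 peaks lay within 100 kb of these genes, of which 16 had no counterpart in replicate 2, and 31 replicate 2 peaks, of which 2 had none in replicate 1. Replicate 1 on its own would therefore give 46 places around 21 genes. Over the whole lists, 6237 of 9607 replicate 1 peaks and 6181 of 6819 replicate 2 peaks had a counterpart in the other replicate. Loss of partners was thus also more common in replicate 1 across the genome, and these counts are not read as particular to the group.

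**Figure D5:**
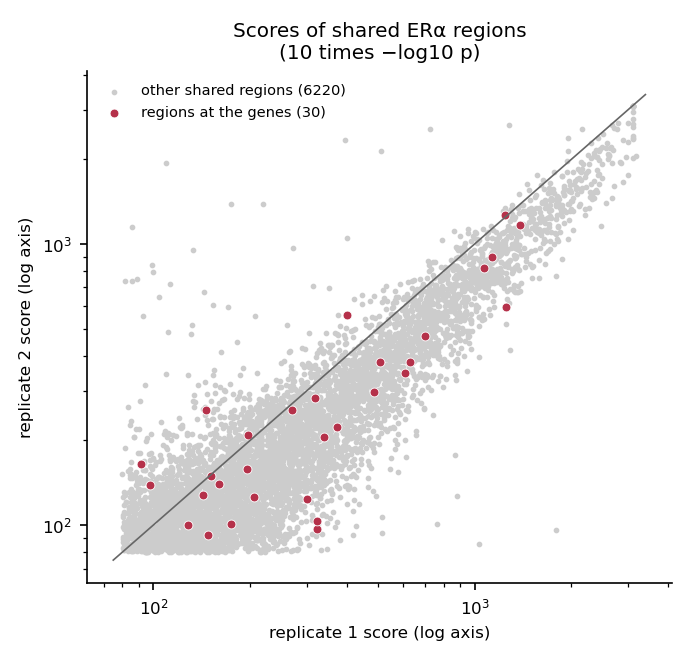
Score of each shared region in replicate 1 (x axis, log scale) and replicate 2 (y axis, log scale), with the 30 regions around the Wnt group genes in red, the other shared regions in grey and a line at equal scores. The red points spread along the grey cloud, and 24 of the 30 lie below the line.

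The motifs were searched on both strands in the 400 bp around each midpoint, as the ERE with at most 1 mismatch, AP1 (TGACTCA or TGAGTCA), SF1 (CAAGGTCA), PAX2 (GTCACG) and FOXA1 (TATTTAC or TGTTTAC). An ERE-like sequence was in 8 of 30 regions, or 26.7% (12.3 to 45.9), beside 31.1% of all shared regions and 1.1% of windows 5 kb to either side that overlapped no peak. With 2 mismatches allowed it was in 20 of 30, or 66.7%, beside 67.4% of shared regions and 15.5% of the flanking windows. The ERE without a mismatch was in 0 of 30, an exact interval reaching 11.6%, beside 6.6% of all shared regions.

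Among the other motifs, AP1 was in 4 of 30 regions (13.3%, beside 16.7% of all shared regions and 7.1% of flanks), SF1 in 4 (13.3%, beside 9.34% and 3.03%), PAX2 in 5 (16.7%, beside 9.16% and 3.93%) and FOXA1 in 5 (16.7%, beside 14% and 10.7%). None of these shares in all shared regions lay outside the interval for the 30. The SF1 motif contains a GGTCA half-site and can overlap an ERE, as it does at Wnt9b and at Fzd4. The PAX2 motif shares the letters GTCA with that half-site. At Fzd10 it lies inside the ERE-like match. At the Lrp5 regions in introns 1 and 2 it lies inside a match to the ERE with 2 mismatches. Those PAX2 matches are therefore not separate from the ERE. None of the 5 motifs was found in 13 of the 30 regions, among them all 3 intronic Wnt5b regions and the strongest region at Wnt8b, and in 41% of all shared regions. The median lower score was 331 in the 8 regions with an ERE-like sequence and 177 in the 22 without, beside 247 and 150 over all shared regions.

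The same counts were made for 44 other genes of the pathway. A shared region lay within 100 kb of 21 of them (47.7%), and 10 (22.7%) were the nearest gene to one, beside 38.1% and 11.8% of all protein-coding genes. No interval and no split by length within 100 kb of a TSS was made for these 44 genes. Length matters here, as 46.8% of all genes in the longest class had a shared region and 31.2% in the shortest. The shares are therefore not read as particular to the pathway. By role a shared region was found at 1 of 2 secretion genes, 3 of 5 co-receptors and alternative receptors, 2 of 4 genes of receptor turnover, 7 of 13 secreted antagonists, 5 of 11 cytoplasmic components and 3 of 9 nuclear components. Lgr6, the third R-spondin receptor of the LGR family, was the nearest gene to 3 regions in its own intron, at 881, 1596 and 1942 bp from a TSS. All 3 were covered by the same replicate 2 peak, of score 736.31, and they scored 81.67, 931.03 and 85.67 in replicate 1.

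Several pathway genes were the nearest to 1 region each, and the first 4 by name are given. The region at Apc, a scaffold of the β-catenin destruction complex, scored 788.98 and 667.79 at 751 bp upstream, and that at Bcl9, a β-catenin co-activator, scored 308.14 and 198.50 at 1239 bp upstream. Axin2, a feedback inhibitor often used as a readout of the pathway, was the nearest gene to a region at 39606 bp upstream (226.42 and 101.16). Dkk1, a secreted inhibitor that binds LRP5 and LRP6, was the nearest gene to a weak one at 34907 bp upstream (88.93 and 115.24). Within 100 kb, Apc had 2 shared regions, Bcl9 5, Axin2 4 and Dkk1 1. Axin2 was the nearest protein-coding gene to all 4 of its regions. The strongest of these scored 1223.53 and 712.57 and lay 97724 bp downstream, close to the distance limit.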

How the data were processed

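Per the labels and the study's methods, single-end reads were aligned to mm9 with BWA and peaks were called with MACS against the input library at a p-value cutoff of 1e-08, separately in each replicate. The version of each tool is not given in the sources used here. The labels and the methods name different library kits. The deposited peak lists hold 1 score per peak, 10 times the −log10 p-value of the caller. No file of the input library was used here. The lists hold no read counts, so a weak peak in one replicate may miss the cutoff in the other.

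Peaks of the replicates were intersected (overlap of at least 1 bp), and midpoints were assigned to every gene with a TSS within 100 kb, using GENCODE mouse 1 (Ensembl 65) on NCBIM37, the same assembly as mm9. Python 3.11.15, numpy 2.4.6, scipy 1.17.1 and pysam 0.24.0 were used, and the counting was tested on simulated peaks. Peaks on unplaced sequence (9 in replicate 1, 7 in replicate 2) could not be assigned. No test was made, as there is 1 group of 2 replicates; shares are read beside all protein-coding genes with exact binomial intervals. The members, the lists of other pathway genes and the motifs were chosen with earlier results of these data known. Regions were described for genes that were the nearest gene to a shared region and for the 6 genes with the most regions; for other genes only the closest region was taken. The farther Lrp6 region, the single-replicate peaks and the closest regions beyond 100 kb were added after their values were seen. Other pathway genes were named by the number of regions to which they were nearest, up to 5, with ties taken by name.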

Additional observations from a re-analysis of the deposited data

How the results depend on the processing

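The count of 17 genes with a shared region was 17 with a score of at least 100, with a reciprocal overlap of 50% or with only the most 5′ TSS (beside 33.8%, 37.9% and 36.4% of all protein-coding genes), 15 with midpoints within 100 bp (35.2%, Wnt5a and Rspo2 lost) and 12 with a score of at least 200 (Wnt1, Wnt10b, Lrp6, Lgr4 and Rspo2 lost), with 20.9% of all protein-coding genes left there. Of the 37 genes, 12 had a shared region at a distance limit of 50 kb and 5 at 20 kb, beside 24.5% and 12.8% of all protein-coding genes. In the main setting it was 17 of 37 (45.9%) beside 38.1%. Only the count at 20 kb differed from the main count by more than 1.5 times. Leaving out 1 replicate gave 17 to 21 genes and 31 to 46 regions, the higher values coming from replicate 1 alone, which added Wnt8a, Wnt11, Fzd2 and Rspo1, beside 40.3% to 49.6% of all protein-coding genes. The 30 regions became 15 with a score of at least 200 and 7 at 20 kb. Between 5 and 8 genes were the nearest to a region, beside 5.75% to 16.6% of all protein-coding genes, in alternatives that did not include 20 kb. The share of regions with an ERE-like sequence was 0% with no mismatch and 66.7% with at most 2, and 16.7% to 33.3% in the other alternatives. The proximal share was 4.35% to 8.33%. Of the region counts of single genes under these settings, 143 stayed within 1.5 times the count reported (or at 0) and 46 did not. No paired analysis was possible because there is 1 group with peaks and no test.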

Other observations

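Among the other pathway genes, 4 were picked out here after their values were seen. Znrf3, the ubiquitin ligase that removes Frizzled proteins and is blocked by R-spondins, had 3 shared regions within 100 kb, one of them with scores of 2101.33 and 1842.22, above every region at the 37 ligand, receptor and R-spondin genes. That region lay 97542 bp upstream, close to the distance limit, and its nearest protein-coding gene was Ccdc117. Csnk1a1, a kinase of the β-catenin destruction complex, had 6 shared regions, the most of the 44 genes, and the nearest protein-coding genes to them were Arhgef37 and Il17b. Gsk3b, another kinase of that complex, had 1 shared region, to which it was the nearest gene, with a lower score of 1635.41. The β-catenin gene Ctnnb1 had no peak in either replicate.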
